A study of Mus musculus with 6 samples.

Results

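The protein subunits of RNase P and RNase MRP were followed in NIH/3T3 cells after depletion of Aldoa. The set held Rpp40, Rpp14, Rpp21, Rpp25, Rpp30, Rpp38, Pop1, Pop4, Pop5 and Pop7, which are 10 gene symbols, and rows with these symbols were taken from the expression table. Of the 10 genes, 8 had a row among the 18001 genes of the table, and these 8 were Rpp40 and 7 partners. Pop7 and Rpp25, whose proteins form a pair that binds the RNA component, were not analysed here. Rpp40 was included because it had the lowest siALDOA to siCTR difference among ribosome biogenesis genes in an earlier analysis of these libraries. Its values are therefore given as a description without a test. The gene list and measure of that earlier analysis are not given here. The study names Ybey and Mettl18 among its most repressed ribosome biogenesis and mitochondrial ribosomal protein genes. Their log2 fold changes there were below that of Rpp40 here, so the rank depends on the list and measure.

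RNase P is the ribonucleoprotein enzyme that removes the leader at the 5′ end of precursor tRNAs. RNase MRP is a related enzyme that shares most of its protein subunits with RNase P, carries another RNA component (Rmrp instead of Rpph1) and cuts the precursor of ribosomal RNA. Rpp40, Pop5, Rpp14 and Rpp30 lie together in a subcomplex of the RNase P particle, Rpp21, Pop4 and Rpp38 form another subcomplex, and Pop1 is the large scaffold protein that touches both the RNA and the other proteins.

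NIH/3T3 is an immortalized mouse fibroblast line, grown here in DMEM with FCS and Pen-Strep. Cells received a pool of siRNAs against Aldoa (siALDOA), the gene of the glycolytic enzyme aldolase A, or a non-targeting siRNA pool (siCTR), and RNA was taken after 48 h. Each group had 3 poly(A) RNA libraries, which the study calls biological replicates, so p-values measure the spread between these libraries of the same line. Both groups carried siRNA, and no untransfected library was used here.

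Expression is given in CPM, the read count of a gene scaled to the effective size of its library. The recovered totals were 3692341 to 3771129 reads per library, so 1 read was worth 0.262 to 0.274 CPM. Aldoa was 534 ± 12 CPM (SD, n = 3) in siCTR and 68.0 ± 4.68 CPM in siALDOA, a log2 difference of -2.96. Within each group, replicates 1 and 2 differed little beyond sampling noise (chi-square per degree of freedom 1.12 in siCTR and 1.11 in siALDOA), whereas pairs with replicate 3 reached 2.07 to 3.24. All 11 fibroblast markers were in the table, with a summed level of 15390 to 15963 CPM in siCTR and 12886 to 13602 CPM in siALDOA. Of the 11, 4 had a higher mean in siALDOA (Fn1, Thy1, Pdgfra and Pdgfrb), and their part in the results was not tested. Epithelial markers (3 of 5 in the table) summed to at most 17.8 CPM in any library, endothelial markers (2 of 4) to at most 4.66 CPM and leukocyte markers (3 of 5) to at most 6.57 CPM. Bulk RNA cannot tell fewer cells of a type from less RNA per cell.

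Rpp40 (ENSMUSG00000021418, chr13:35893472-35906359, minus strand, GRCm38) encodes a subunit that contacts Pop5 in the particle. It had 18.4, 19.7 and 17.2 CPM in siCTR replicates 1 to 3 and 12.4, 9.09 and 12.8 CPM in siALDOA replicates 1 to 3. Each siALDOA library lay below each siCTR library, and siALDOA replicate 2 was the lowest of the 6. The means were 18.4 ± 1.25 CPM and 11.4 ± 2.05 CPM (SD, n = 3), so the siALDOA mean was 62.1% of the siCTR mean. On the log2(CPM + 1) scale the difference was -0.65 with a standard error of 0.159. At or below this difference lay 292 of the 18001 genes (1.62%), and this difference is the value that chose the gene. The spread between libraries was larger in siALDOA, with a coefficient of variation of 17.9% against 6.79% in siCTR. These values rest on 34 to 72 reads per library. Without siALDOA replicate 2 the log2 difference was -0.51. Rpp40 shares 80 exon bases (1.22%) with the lincRNA Gm48746 on the opposite strand, which was not analysed here.

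The upstream sequences of Rpp40, Rpp30 and Rpp38 are shown because these are the analysed subunit genes whose start regions hold the motif TGCGCA. In Rpp30 and Rpp38 a match lies in the stretch shown, and in Rpp40 the only match lies beyond its end. They come from RefSeq on GRCm38.p6, run 5′ to 3′ on the strand of the gene and end just before the annotated exon, at chr13:35906360-35906597 (minus strand), chr19:36083466-36083715 (plus strand) and chr2:3332644-3332878 (minus strand). Capitals mark GGGCGG, the core of GC boxes, and TGCGCA, the core of NRF1 sites.
Rpp40: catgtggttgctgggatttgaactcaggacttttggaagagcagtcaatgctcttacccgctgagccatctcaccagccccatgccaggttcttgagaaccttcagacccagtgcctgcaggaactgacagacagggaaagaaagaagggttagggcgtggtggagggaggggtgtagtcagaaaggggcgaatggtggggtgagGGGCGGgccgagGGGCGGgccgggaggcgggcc
Rpp30: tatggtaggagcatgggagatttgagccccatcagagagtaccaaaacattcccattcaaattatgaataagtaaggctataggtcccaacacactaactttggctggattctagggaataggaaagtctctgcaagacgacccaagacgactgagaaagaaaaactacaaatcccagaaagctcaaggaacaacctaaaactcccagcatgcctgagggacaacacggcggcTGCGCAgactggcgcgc
Rpp38: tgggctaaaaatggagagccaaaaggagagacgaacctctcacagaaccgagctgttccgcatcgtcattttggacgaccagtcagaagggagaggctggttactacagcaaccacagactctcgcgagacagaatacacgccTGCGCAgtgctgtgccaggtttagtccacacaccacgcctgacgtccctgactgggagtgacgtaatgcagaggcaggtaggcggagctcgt

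RefSeq start regions (250 bases before and 50 after the start) were at hand for 8 of the 10 subunit genes, not for Pop1 and Rpp21. Short motifs, none of which contains another, were searched on both strands, and a match describes letters and not a site in use. TGCGCA occurred in 4 of the 8 regions (Rpp40, Rpp30, Rpp38 and Pop7) and in 13.1% of the 11192 start regions of genes in the table. Pop7 and Rpp25 were not analysed here, and their regions are not among these 11192, so the sets compared are not alike. GGGCGG occurred in 5 of the 8 (Rpp40, Rpp14, Rpp25, Pop5 and Pop7) and in 59.2% of all. In Rpp40 the GGGCGG matches began at positions -45 and -33, counted from the RefSeq start as 0, and a TGCGCA began at 31. CACGTG, the E-box bound by Myc, was found in 1 of the 8 (Rpp38, from position 10) against 9.62% of all. CCGGAAG, an ETS motif, was in 0 of the 8 against 16.4% of all, and AAGATGG, a YY1 motif, in 0 of the 8 against 7.06%. The analysed genes with TGCGCA had log2 differences of -0.65 (Rpp40, chosen on this value), -0.29 (Rpp30) and -0.13 (Rpp38). Those with a start region but no TGCGCA had -0.17 (Pop5), -0.13 (Rpp14) and -0.10 (Pop4). The values of both overlapped, and with so few genes a link between motif and change was not tested.

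**Figure D1:**
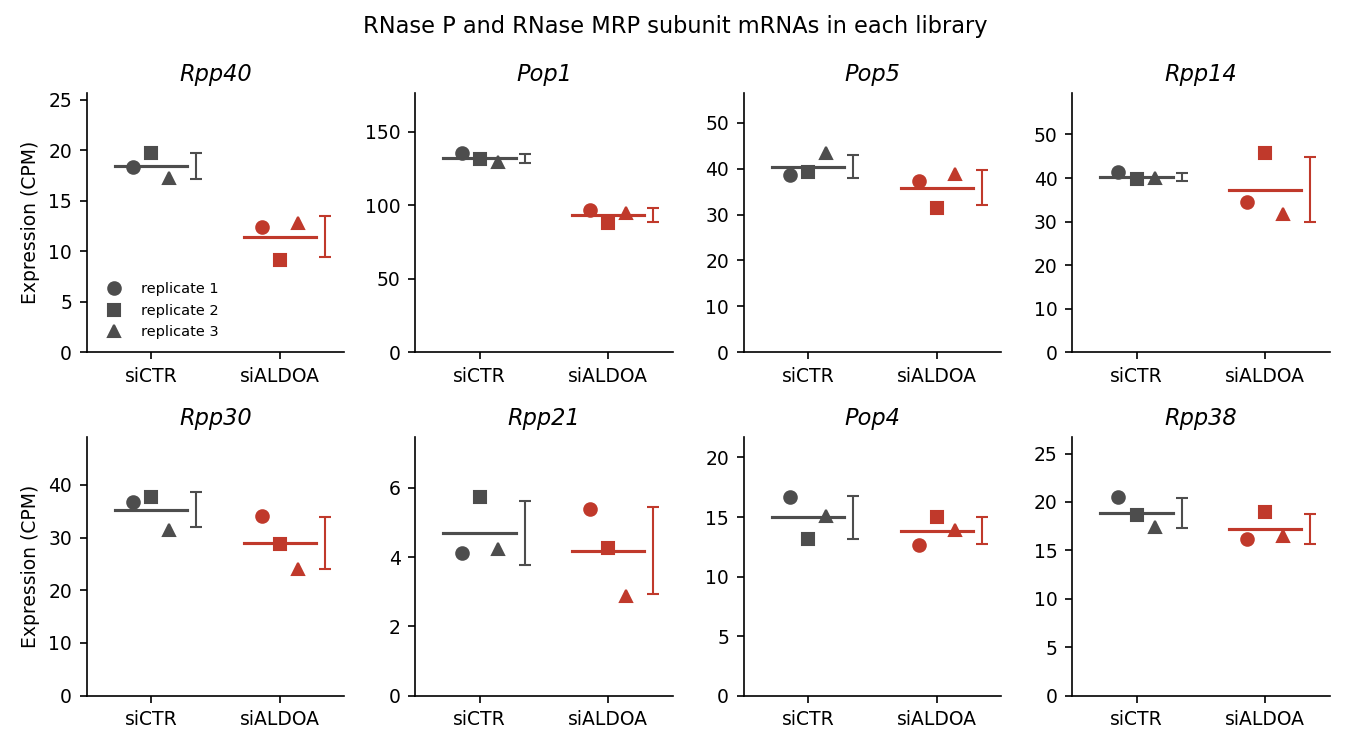
Expression in CPM (vertical axes, each starting at 0) of the 8 subunit mRNAs in siCTR (grey) and siALDOA (red). Points are libraries, with the shape giving the replicate, horizontal lines are group means and bars are ± SD (n = 3). The groups do not overlap for Rpp40 and Pop1 and overlap for the other 6 genes.

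Among the subunits placed next to Rpp40 in the particle, none passed the test. Pop5 (ENSMUSG00000060152, chr5:115235836-115245351, plus strand), a core subunit present in both enzymes, had 38.6, 39.4 and 43.4 CPM in siCTR and 37.2, 31.5 and 38.8 CPM in siALDOA. The groups overlapped in siALDOA replicate 3, which exceeded siCTR replicate 1. Its log2 difference was -0.17 (95% interval -0.38 to 0.028, adjusted p = 0.24, limma). The span of Pop5 overlaps that of Rnf10 on the opposite strand over 3940 bases, with 0 shared exon bases. Rnf10 had 233 CPM in siCTR and 229 CPM in siALDOA.

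Rpp14 (ENSMUSG00000023156, chr14:8080367-8091834, plus strand), which is related to Pop5 in fold, had 41.4, 39.7 and 39.9 CPM in siCTR and 34.5, 45.7 and 31.7 CPM in siALDOA. The siCTR libraries were close together, and siALDOA replicate 2 was the highest of the 6 while the other siALDOA libraries were the lowest. The coefficient of variation was 2.25% in siCTR and 19.9% in siALDOA. The log2 difference was -0.13 (95% interval -0.35 to 0.10, adjusted p = 0.48, limma). It was -0.28 without siALDOA replicate 2 and -0.020 without siALDOA replicate 3, past the threshold in neither case.

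Rpp30 (ENSMUSG00000024800, chr19:36083716-36104777, plus strand), a subunit shared by both enzymes, had 36.7, 37.8 and 31.5 CPM in siCTR and 34.0, 28.9 and 24.1 CPM in siALDOA. In each group replicate 3 was the lowest, and siALDOA replicate 1 exceeded siCTR replicate 3. The means were 35.3 ± 3.36 and 29.0 ± 4.96 CPM (SD, n = 3), and the log2 difference was -0.29 (95% interval -0.53 to -0.043). This did not pass the threshold (adjusted p = 0.093, limma, and 0.043 to 0.475 over the other settings). It passed without siALDOA replicate 1, where the log2 difference was -0.40 (adjusted p = 0.043, limma). Transcripts of 47 other genes, 13 of them in the table, share stretches of 202 to 342 bases with Rpp30 transcripts at 90% to 93.4% identity, and how reads with several matches were counted was not given in the sources used here, so the Rpp30 values are uncertain.

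Pop1 fell in siALDOA. Pop1 (ENSMUSG00000022325, chr15:34495304-34530648, plus strand), the scaffold of both enzymes, had 135, 131 and 129 CPM in siCTR and 96.9, 87.9 and 94.8 CPM in siALDOA. The groups were far apart relative to their spread, with means of 132 ± 3.14 and 93.2 ± 4.68 CPM (SD, n = 3), and the siALDOA mean was 70.7% of the siCTR mean. The log2 difference was -0.50 (95% interval -0.62 to -0.38, adjusted p = 8.7e-07, limma). Over the other settings the adjusted p was at most 0.024, which came without replicate 3 of both groups. An exact two-sided permutation test gave p = 0.1, the smallest that 3 against 3 libraries allow. Of the 18001 genes, 4.27% had a log2 difference at or below that of Pop1. With 329 to 494 reads per library, Pop1 was the most deeply covered of the subunits.

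The subcomplex of Rpp21, Pop4 and Rpp38 showed overlapping groups for each gene. Rpp38 (ENSMUSG00000049950, chr2:3328949-3332643, minus strand), an RNA-binding protein of the L7Ae family, had 20.5, 18.6 and 17.5 CPM in siCTR and 16.2, 19.0 and 16.5 CPM in siALDOA. Here siALDOA replicate 2 lay above siCTR replicates 2 and 3. The log2 difference was -0.13 (95% interval -0.41 to 0.16, adjusted p = 0.59, limma), from 60 to 75 reads per library.

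Pop4 (ENSMUSG00000030423, chr7:38261996-38271423, minus strand), an RNA-binding subunit of both enzymes, had 16.7, 13.1 and 15.1 CPM in siCTR and 12.7, 15.0 and 13.9 CPM in siALDOA. The lowest library was siALDOA replicate 1 and the highest siCTR replicate 1, so the difference depended on that replicate. The log2 difference was -0.10 (95% interval -0.42 to 0.21, adjusted p = 0.71, limma), and it was 0.032 without replicate 1 of both groups. Pop4 shares 12 exon bases with the antisense gene Gm44767, which had 0 to 2 reads per library.

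Rpp21 (ENSMUSG00000024446, chr17:36255645-36258069, minus strand), a zinc-binding subunit found in RNase P rather than RNase MRP, had 4.11, 5.74 and 4.23 CPM in siCTR and 5.40, 4.28 and 2.88 CPM in siALDOA. With 11 to 21 reads per library it was the least covered member. The log2 difference was -0.15 (95% interval -0.67 to 0.37, adjusted p = 0.74, limma) and turned to 0.040 without siALDOA replicate 3. The interval held both 0 and the log2 difference of Pop1.

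**Figure D2:**
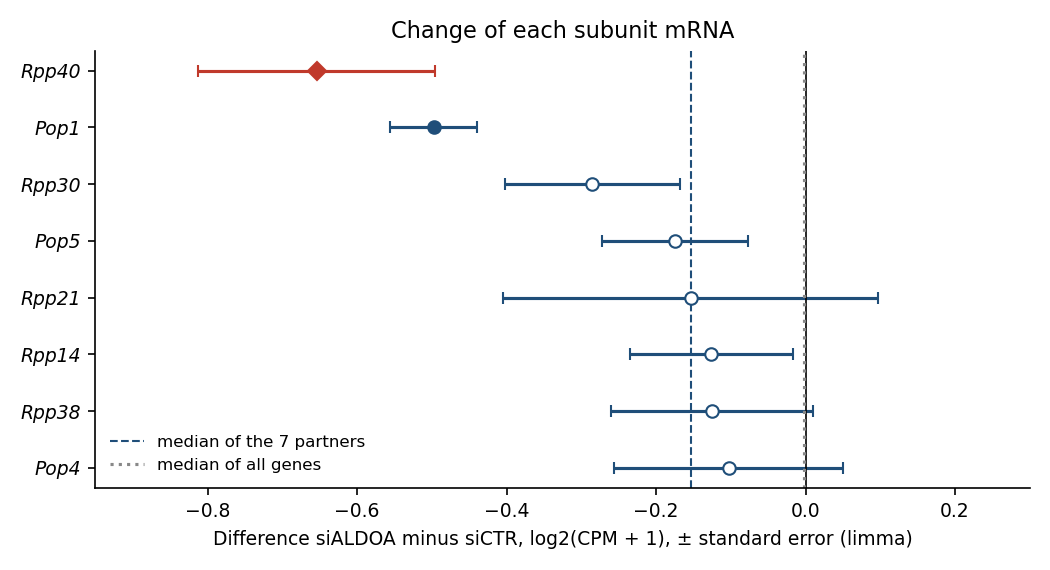
Log2 difference, siALDOA minus siCTR, on the log2(CPM + 1) scale (horizontal axis) for each subunit mRNA, with ± standard error from limma (n = 3 per group). The red diamond marks Rpp40, which was chosen on this value and not tested, the filled circle marks the partner with an adjusted p under 0.05 and open circles the other partners. The dashed line is the partners' median of -0.15 and the dotted line the median of all genes of -0.0023.

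Of the 7 partners 1, Pop1, was called lower at an adjusted p under 0.05, where in all 10.0% of genes were called lower, 10.4% higher and 20.4% in either direction. edgeR called 1 partner, DESeq2 called 1 of the 6 for which it gave an adjusted p (not Rpp21), and 2 partners (Pop1 and Rpp30) had an unadjusted p under 0.05 in limma. No partner was called higher, with 0 at an unadjusted p under 0.05 in limma, 0 by edgeR's quasi-likelihood test and 0 by DESeq2. Without siALDOA replicate 1, 2 partners were called lower (Pop1 and Rpp30), and in every other setting the count was 1. Each siALDOA library lay below each siCTR library for Rpp40 and Pop1, as for 17.1% of all genes. As the subunits entered through Rpp40 and this contrast, nothing is read from these shares.

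The log2 differences of all 7 partners were below 0, as were those of 50.4% of all genes, and Rpp21 and Pop4 each turned positive in 1 of the 19 other settings. The partners ranged from -0.50 (Pop1) to -0.10 (Pop4) with a median of -0.15, beside -0.0023 for all genes. Rpp40 minus the partners' median was -0.50. This distance rested in part on replicate 2, since it was -0.32 without siALDOA replicate 2 and -0.22 without replicate 2 of both groups. All 8 members passed a filter at the lower quartile of mean CPM (1.79 CPM), which 13500 genes passed.

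The relation of Rpp40 to its partners was also followed within each library. Rpp40 took 5.89%, 6.45% and 5.77% of the summed CPM of the 8 subunits in siCTR and 4.98%, 3.77% and 5.45% in siALDOA. The groups did not overlap, although siALDOA replicate 3 came close to siCTR replicate 3, and the means were 6.04% ± 0.363 and 4.73% ± 0.869 (SD, n = 3). The difference on which Rpp40 was chosen enters this share, so the separation is a description and was not tested. Set against Pop1 alone, Rpp40 CPM was 13.6%, 15.0% and 13.3% of Pop1 CPM in siCTR and 12.8%, 10.3% and 13.5% in siALDOA. Here the groups overlapped, with siALDOA replicate 3 above siCTR replicate 3.

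The summed CPM of the 7 partners was 293, 286 and 281 in siCTR and 237, 232 and 223 in siALDOA. The groups stood apart, with means of 287 ± 6.38 and 231 ± 7.33 CPM (SD, n = 3). Most of this distance came from Pop1. Without Pop1 the sums were 158, 154 and 152 CPM in siCTR and 140, 144 and 128 CPM in siALDOA, still without overlap, with means of 155 ± 3.24 and 137 ± 8.59 CPM. Taken alone, each partner other than Pop1 had overlapping groups, and none passed the threshold with all libraries in the fit. Among single genes of the table, 17.1% had each siALDOA library below each siCTR library. The sums were not tested, and nothing is read from their separation.

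Levels were compared between subunits per length of the merged exons. In siCTR the order was Pop1 (34.8 CPM per kb), Rpp38 (18.1), Pop5 (17.6), Rpp14 (16.8), Rpp30 (8.45), Pop4 (5.26), Rpp21 (3.86) and Rpp40 (2.82 CPM per kb). The library ranges of Rpp38 and Pop5, of Pop5 and Rpp14 and of Pop4 and Rpp21 overlapped, and differences between these neighbours were not tested. Rpp40 was the lowest subunit in both groups, with 1.75 CPM per kb in siALDOA, and 41.6% of 17932 annotated genes had a lower siCTR level. Pop1 lay above 88.3% of genes.

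The order depended on the length used. Rpp40 exons merge to 6540 bases and those of Rpp30 to 4179 bases, whereas their longest coding transcripts have 4380 and 1145 bases. Per length of the longest coding transcript the siCTR order was Pop5 (39.5 CPM per kb), Pop1 (38.9), Rpp30 (30.8), Rpp38 (18.1), Rpp14 (16.8), Pop4 (7.09), Rpp21 (6.44) and Rpp40 (4.20 CPM per kb). Here the siCTR ranges of Pop5 and Pop1, of Rpp38 and Rpp14 and of Pop4 and Rpp21 overlapped. In CPM per kb Rpp30 moved most, and Rpp40 remained the lowest, with 2.61 CPM per kb in siALDOA.

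**Figure D3:**
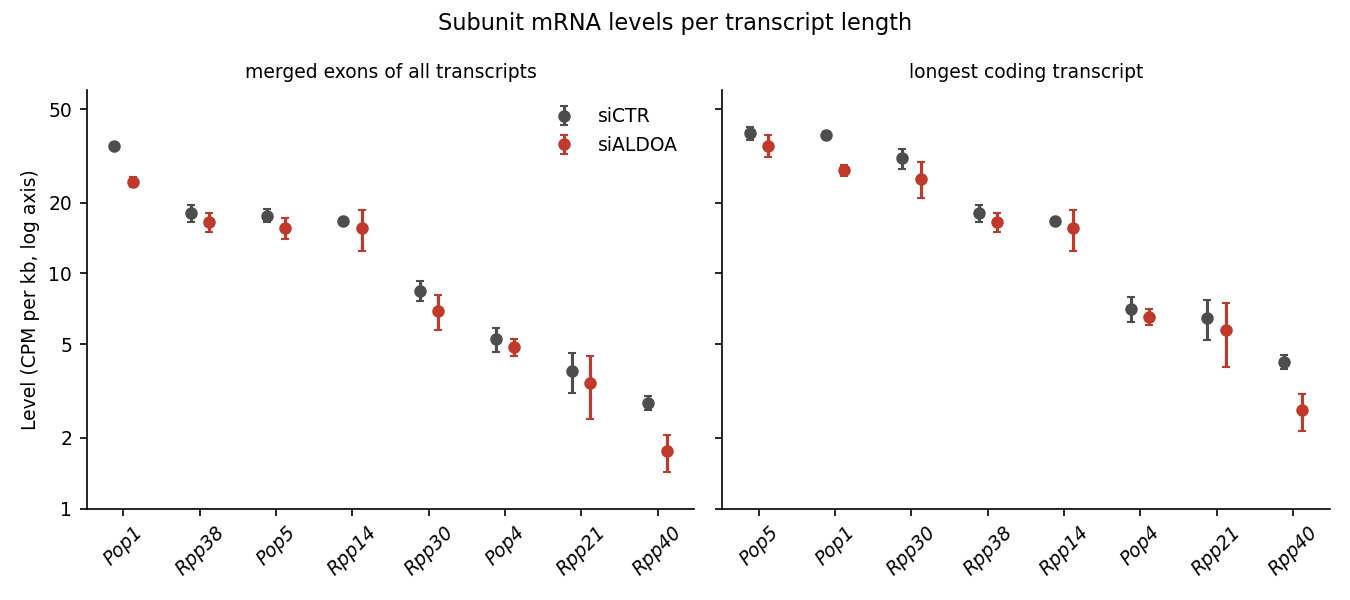
Levels of the 8 subunit mRNAs in CPM per kb (log axis) in siCTR (grey) and siALDOA (red), as means ± SD of 3 libraries. The left panel divides by merged exons and the right panel by the longest coding transcript, and Rpp40 is the lowest in both, at 2.82 and 4.20 CPM per kb in siCTR.

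The genes whose pattern over the 6 libraries was most like that of Rpp40 were sought among 11529 genes with a mean of at least 5 CPM, by the root mean square difference of log2(CPM + 1) from the siCTR mean of each gene. They were Aif1l (0.085), Gm5356 (0.089), Eno3 (0.097), a muscle enolase, Ostn (0.103) and Lig1 (0.105), the replicative DNA ligase. Aif1l had 17.8, 19.4 and 17.2 CPM in siCTR and 12.1, 10.2 and 11.5 CPM in siALDOA, close to Rpp40 in each library. Among the other subunits Pop1 was the most alike, at rank 86 of 11528 genes with 0.161. Rpp30 and Pop5 followed at ranks 1697 and 2094, and Rpp38, Pop4 and Rpp14 lay between ranks 3957 and 5276. Rpp21, with a mean under 5 CPM, was not ranked. The measure includes the siALDOA minus siCTR difference, on which Rpp40 was chosen. The ranks therefore reflect the size of that difference as well as the single libraries, and they are a description without a test.

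The RNA components of both enzymes lack a poly(A) tail, so their reads in poly(A) libraries do not give their cellular level. Rmrp had 8.49, 8.75 and 0.794 CPM in siCTR and 7.83, 5.35 and 2.62 CPM in siALDOA. Rpph1 had 3.29, 4.92 and 0 CPM in siCTR and 4.32, 3.74 and 1.57 CPM in siALDOA. For both RNAs siCTR replicate 3 was the lowest of the 6 libraries, and replicate 3 was the lowest within siALDOA as well. The groups overlapped, with adjusted p = 0.92 for Rmrp and 0.54 for Rpph1 (limma). A count of 0 allows up to 3 reads, which is 0.786 to 0.822 CPM.

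The other genes of tRNA end processing and splicing were taken as a list of 20 genes, all in the table. At an adjusted p under 0.05, 10 fell, 1 rose and 9 did not pass, beside 10.0% of all genes called lower and 10.4% higher. With the low-value filter 1948 of the 13500 genes were called lower, and 10 of the list. The median log2 difference of the list was -0.22, beside -0.0023 for all genes. Of the 20 values 16 were below 0, as were those of 50.4% of all genes. Elac2, the nuclease that removes the 3′ trailer of tRNA precursors, had 77.0, 82.3 and 76.7 CPM in siCTR and 60.2, 61.5 and 60.5 CPM in siALDOA. Its groups were far apart, with a log2 difference of -0.37 (SE 0.068, adjusted p = 0.00030, limma). Trnt1, which adds the CCA end, fell from 67.5 ± 2.95 to 56.2 ± 0.447 CPM (SD, n = 3).

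Ssb, the La protein that binds the 3′ end of new polymerase III transcripts, had 213, 200 and 212 CPM in siCTR and 159, 157 and 160 CPM in siALDOA. With a log2 difference of -0.39 (SE 0.048, adjusted p = 1.6e-06, limma) it was the pathway gene with the lowest adjusted p. Of the tRNA splicing endonuclease, Tsen15 fell by 0.32 and Tsen34 by 0.29 on the log2 scale, and Tsen54 had a log2 difference of 0.08 (adjusted p = 0.69, limma). Of the tRNA ligase complex, Ddx1 fell by 0.23 and Fam98b by 0.23, whereas Rtcb, the ligase itself, did not pass the threshold (log2 difference -0.14, adjusted p = 0.086, limma). Xpot, the tRNA export receptor, fell from 263 ± 8.03 to 226 ± 2.75 CPM (SD, n = 3).

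Mitochondria use another RNase P, made of Trmt10c, Hsd17b10 and Prorp without an RNA component. Trmt10c was the gene of the list that rose, with 45.5, 63.2 and 59.3 CPM in siCTR and 81.8, 74.6 and 67.0 CPM in siALDOA. The groups did not overlap, and the log2 difference was 0.41 (SE 0.097, adjusted p = 0.0031, limma). It no longer passed without siCTR replicate 1 (log2 difference 0.27) or without siALDOA replicate 1 (0.35). Hsd17b10 went the other way, from 68.7 ± 4.69 to 58.7 ± 3.93 CPM (adjusted p = 0.042, limma, n = 3). Prorp, the nuclease subunit, had 20.1 ± 1.64 and 18.6 ± 1.10 CPM and did not pass (adjusted p = 0.65, limma). No difference between the nuclear and the mitochondrial enzyme was tested.

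Nucleases and partners that cut or trim the ribosomal RNA precursor beside RNase MRP were a list of 11 genes, all in the table. Of these 4 fell and none rose, where 10.0% of all genes were called lower and 10.4% higher, with 0 of the list higher at an unadjusted p under 0.05 in limma, 0 by edgeR and 0 by DESeq2. The median log2 difference was -0.17, beside -0.0023 for all genes. Of the 11 values 9 were below 0, as were those of 50.4% of all genes. Rcl1, a protein of the small subunit processome, had 121, 118 and 115 CPM in siCTR and 97.7, 99.4 and 96.9 CPM in siALDOA (log2 difference -0.26, adjusted p = 0.0015, limma). Las1l and Nol9, which act together at the second internal spacer, fell by 0.21 and 0.17 on the log2 scale. Dis3, an exosome nuclease, fell by 0.18 (adjusted p = 0.049, limma). The other 7 genes ranged from -0.31 (Fcf1) to 0.03 (Nob1).

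The counts of calls in both lists dropped when a library was left out, which also leaves fewer samples in the fit. In the tRNA list 6 genes were called lower without siCTR replicate 1, 2 or 3 or siALDOA replicate 3, 7 without siALDOA replicate 2 and 8 without siALDOA replicate 1. In the nuclease list the count was 1 without siCTR replicate 2 or siALDOA replicate 3 and 2 without each of the other libraries. Trnt1 failed without siCTR replicate 3 (adjusted p = 0.058, limma). Hsd17b10 and Tsen15 passed in none of the 6 fits that left out a library, and Fam98b and Nol9 in 1 each. Dis3 passed in 1 (without siALDOA replicate 2) and Las1l in 2. Elac2, Ssb, Pop1, Tsen34, Ddx1, Xpot and Rcl1 passed without each library in turn, and Elac2, Ssb and Pop1 passed in each of the 19 other settings.

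**Figure D4:**
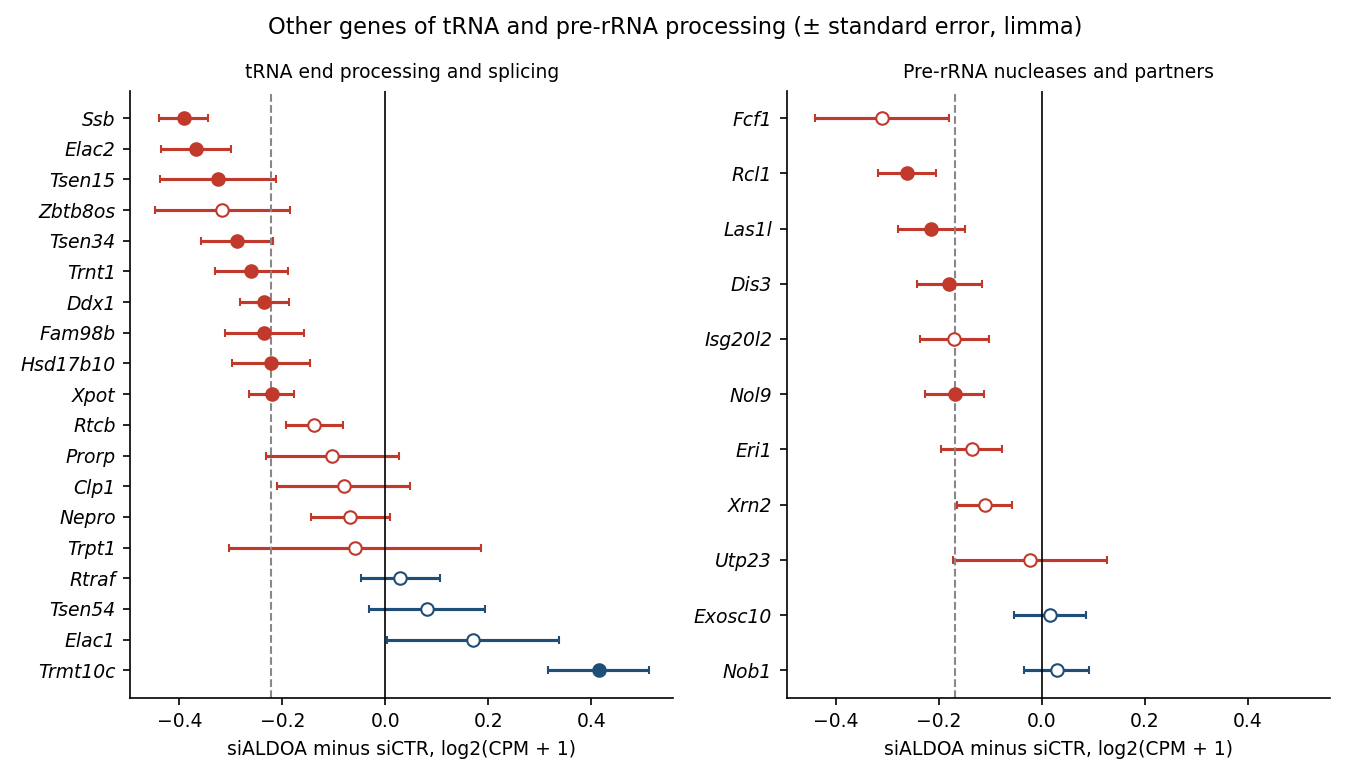
Log2 difference, siALDOA minus siCTR, on the log2(CPM + 1) scale (horizontal axes) ± standard error from limma (n = 3 per group) for 19 of the 20 genes of tRNA end processing and splicing (left) and the 11 nucleases and partners of ribosomal RNA processing (right). Red marks values below 0 and blue values above 0, filled points have an adjusted p under 0.05, and dashed lines are the medians of the whole lists, -0.22 and -0.17. Trmt10c is the filled point to the right of 0.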

How the data were processed

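Poly(A) RNA of 3 siCTR and 3 siALDOA libraries was sequenced. Per the labels and the study's methods, the authors aligned reads to mm10 with Bowtie2 2.2.7, drew the same number of reads from each sample, counted reads by gene and deposited the values as CPM. In replicate 1 ERCC RNAs were added to the lysis buffer, and in the other replicates after extraction. The library kit was directional, and the use of strand in counting was not given in the sources used here. The stated minimum of 12 reads was not met by 1834 genes of the table. A deposited table of the authors' comparison (log2 fold changes, log2 mean CPM, p-values) was not used.

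Dividing by the value of 1 read gave whole reads for 100% of values (tolerance 0.01). The reads carry no molecular identifiers, so copies of a molecule are counted as separate reads. Read numbers alone therefore understate the error, and pairs with replicate 3 differed beyond counting noise (chi-square per degree of freedom 2.07 to 3.24). Groups were compared with limma 3.58.1 (R 4.3.3) in a two-sided test with a variance trend. Values entered as log2(CPM + 1), and p-values were adjusted over 18001 genes by Benjamini-Hochberg, with a threshold of 0.05. Differences on this scale understate changes of low genes. edgeR 4.0.16 and DESeq2 1.42.0 on the recovered reads, other scalings, a pseudocount of 0.1, a low-value filter and left-out libraries were alternatives, and the removal of a replicate number from both groups and the transcript length were added after seeing the data. The fits were run on simulated data with independent libraries, the same dispersion for all genes and larger changes than those of the subunits. The simulation had no deviating replicate 3, so it does not bear on the calls given here.

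The subunits and both gene lists were chosen with earlier results of these data known. Named genes were the subunits, Aldoa, the RNA components, overlapping genes, list genes past the threshold, mitochondrial RNase P and the 5 genes most like Rpp40. Members of lists that did not pass and are named beside these were picked after their values were seen. GENCODE models (GRCm38) matched 17932 identifiers, and similar transcripts were searched with blastn 2.17.0 (at least 200 bases and 90% identity). Rpp25l was not analysed here. The values of 1 gene of the tRNA list are not reported here, and it stays in the counts.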

Additional observations from a re-analysis of the deposited data

How the results depend on the processing

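Under 19 other settings the log2 difference of Pop1 stayed between -0.53 and -0.46 and past the threshold, that of Rpp40 (not tested) between -0.78 and -0.46, and the median of the partners between -0.24 and -0.11. The median of the 8 members was -0.16 and, without replicate 1 of both groups, -0.30; over left-out libraries it ran from -0.30 to -0.13. The distance of Rpp40 from the partners' median ran from -0.63 to -0.22 over left-out libraries. Rpp21 turned to 0.040 without siALDOA replicate 3, with a range from -0.39 to 0.040 over left-out libraries, and Pop4 to 0.032 without replicate 1. Rmrp was -0.18 by edgeR, -0.19 by DESeq2 and -0.71 to 0.51 over left-out libraries, and Rpph1 -0.33 to 0.96. Other scalings moved the median of all genes by less than 0.02.

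Genes called lower and higher in the whole table numbered 1809 and 1867, and 616 and 824 without the mean-variance trend, 1117 and 1066 by DESeq2, and 520 to 1371 and 494 to 1464 over left-out libraries. Counts over the 8 members include Rpp40, whose call is no test, and ran from 1 to 3 over left-out libraries, while the partners called lower were 1 in every setting but without siALDOA replicate 1 (2). In the tRNA list 10 genes were called lower, 2 without the trend, 5 by DESeq2 and 3 to 8 over left-out libraries; the 1 called higher was 0 without the trend and 0 to 1 over left-out libraries. In the nuclease list 4 genes were called lower, 2 with a pseudocount of 0.1, 2 with plain library totals, 0 without the trend, 1 by DESeq2 and 0 to 2 over left-out libraries. What moved these counts was not tested, beyond the smaller number of libraries in a fit that leaves some out.

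Deviations from the group means correlated at 0.040, 0.040 and 0.207 between the libraries numbered 1, 2 and 3, across 8271 genes. For replicates 1 and 2 this was below the correlation of siCTR replicate 2 with siALDOA replicate 1 (0.125). For replicate 3 it was the highest of all pairs, and pairs of replicate 3 with another number ran from -0.154 to -0.079. What the libraries numbered 3 shared was not tested. The numbers were not taken as pairs in the main fit, and a replicate block was an alternative. With the replicate block, 1559 genes were called lower and 1611 higher, and 1 of the 7 partners was called lower. In the tRNA list 7 genes were called lower and 1 higher, and in the nuclease list 2 were called lower.

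Depth limits the members at the low end, with 11 to 21 reads per library for Rpp21, 34 to 72 for Rpp40 and 47 to 61 for Pop4, where the standard errors were 0.251, 0.159 and 0.153.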
